A study of Homo sapiens with 4 samples.

Results

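In all, 10 genes of replication licensing were examined in 2 pancreatic cancer cell lines, SW1990 and PANC-1, of the 58174 genes listed. The members were taken by name and are MCM2, MCM3, MCM4, MCM5, MCM6, MCM7, CDC6, CDT1, GMNN and ORC1, so that 10 of 10 were found. Each line was sequenced once without radiation (0 Gy) and once after 10 Gy of X-rays, which gave 4 libraries with 1 library per line and treatment. The cells were grown at passages 14 to 16 with 10% FBS, PANC-1 in DMEM and SW1990 in 1640 medium, and the time between radiation and RNA collection is not given in the sources used here. Cell line and medium cannot be told apart. The SW1990 libraries held 17939210 counts before and 18388969 after radiation, and the PANC-1 libraries 23451153 and 20154644. Because no condition was repeated, a test on the reads compares these libraries and not the conditions, and every interval below covers counting error only.

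Replication licensing is the step in G1 phase in which the MCM2 to MCM7 helicase is placed on DNA in an inactive form, so that each origin can fire once in the following S phase. The origin recognition complex, to which ORC1 belongs, binds DNA, CDC6 joins it and CDT1 brings the helicase, while geminin, the product of GMNN, binds CDT1 and stops further loading after S phase has begun. Many of these genes are known targets of the E2F transcription factors, and RNA of a whole culture cannot separate more transcript per cell from more cells in the phase that makes it.

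The promoters of the members are shown first, because E2F sites are a feature that licensing genes are known to share. The choice of members did not use these letters, but many members are known E2F targets, so that matches were likely beforehand. RefSeq promoter windows (GRCh38.p14), which hold 250 bases before and 50 bases from the start on, were at hand for 8 of the 10 members, with no entry for MCM4 and MCM5. They were searched on both strands for 4 words of 8 letters that fit the E2F site, TTTCCCGC, TTTGGCGC, TTTCGCGC and TTTGCCGC, which can overlap each other on opposite strands. At least 1 word was found for 7 of the 8 members, and none for ORC1, against 3.99% of the 27305 genes with a window and 3.31% of the 35116 windows. MCM7 has 3 windows and GMNN has 2, and 7 of the 11 windows of the members held a word. A match describes the letters only. One stretch of 30 bases per member, and both stretches of MCM6, are given on the strand of the gene, 5′ to 3′, with the words in capitals and with the place of the first capital counted from the RefSeq start. A second stretch of MCM3, from base -4, and a second stretch of MCM7, from base -9, are not shown. For MCM6 the words of both strands overlap and make a run of 12 capitals that occurs in 2 places.
MCM6, chr2:135876575-135876604, minus strand, from base -152: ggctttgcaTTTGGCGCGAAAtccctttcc
MCM6, chr2:135876513-135876542, minus strand, from base -90: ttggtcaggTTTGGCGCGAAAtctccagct
MCM2, chr3:127598404-127598433, plus strand, from base 3: tgaaccactTTTCGCGCGAAAcctggttgt
MCM3, chr6:52284898-52284927, minus strand, from base -174: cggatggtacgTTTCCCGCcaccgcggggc
MCM7, chr7:100101566-100101595, minus strand, from base -187: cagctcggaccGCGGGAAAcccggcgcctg
CDC6, chr17:40287875-40287904, plus strand, from base 8: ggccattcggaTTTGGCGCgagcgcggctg
CDT1, chr16:88803743-88803772, plus strand, from base -35: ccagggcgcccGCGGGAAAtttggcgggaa
GMNN, chr6:24775322-24775351, plus strand, from base -80: gctgggtcggtTTTGGCGCgctctcacttc

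The labelled cell type was checked with marker genes. KRT8, an epithelial keratin, was between 786 and 1890 FPKM and KRT19, a keratin of pancreatic duct, between 146 and 306 FPKM in the 4 libraries (FPKM, fragments scaled to transcript length and library size). KRT7, another duct keratin, was lower, between 5.02 and 6.35 FPKM, and CFTR, the duct chloride channel, had 304 and 288 counts in SW1990 but 0 counts in both PANC-1 libraries. EPCAM and CDH1, surface proteins of epithelial cells, were at 217 and 140 FPKM in unirradiated SW1990 cells, but at 2.28 and 0.673 FPKM in unirradiated PANC-1 cells, where VIM, a mesenchymal filament gene, reached 1630 FPKM. Of the rest of the mesenchymal list, ZEB1 and CDH2 were at 17.4 and 2.79 FPKM there. FN1 and SPARC were at only 0.143 and 0.296 FPKM, and SPARC was higher, at 0.854 FPKM, in unirradiated SW1990 cells. Of the 5 acinar markers, 5 had no count in either PANC-1 library and PRSS1 had 12 and 8 counts in SW1990 cells, and PTPRC and CD3E of leukocytes had at most 2 counts in a library. Of the lists of other cell types, single genes were above this in PANC-1 cells before and after radiation, with CD68 at 18.8 and 13.9 FPKM in the leukocyte list (sums of 18.9 and 13.9), KDR at 6.37 and 5.37 FPKM in the endothelial list (6.38 and 5.44) and COL1A1 at 8.44 and 11.0 FPKM in the fibroblast list (8.46 and 11.1). In SW1990 cells the same 3 lists summed to at most 3.88 FPKM. After radiation, ZEB1 went from 14 to 66 counts in SW1990 and SPARC from 20 to 68 counts in PANC-1 cells. Both were higher with a q-value under 0.001 and a fold change above 2. By the same limits 1 fibroblast marker was lower in SW1990 cells. SOX9, a duct marker, was lower in both lines, with log2 fold changes of -0.83 and -0.34. KRT19 was higher in both, with 0.48 and 0.64. The part of all these markers in the results was not tested.

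All 10 members had an FPKM of at least 1 in every library. Together they took 0.23% of the counts on named genes in unirradiated SW1990 cells, 0.209% in irradiated SW1990 cells, 0.121% in unirradiated PANC-1 cells and 0.146% in irradiated PANC-1 cells. The helicase subunits were the most abundant members, with the exception of MCM6, which stood next to CDC6 in irradiated SW1990 cells and next to GMNN in both PANC-1 libraries.

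MCM2, which closes the ring beside MCM5, had 5181 counts before and 4804 after radiation in SW1990 cells, and 4719 and 5663 counts in PANC-1 cells (chr3:127598223-127622436, plus strand). Its level was 82.8, 78.4, 58.5 and 69.9 FPKM in the same order. MCM5, the subunit on the other side of that gate (chr22:35400063-35425430, plus strand), had 4398, 3069, 3019 and 2894 counts and 82.0, 56.2, 31.8 and 44.3 FPKM. Both genes were thus lower after radiation in the SW1990 pair. In the PANC-1 pair, whose irradiated library is smaller, MCM2 was higher, and MCM5 went from 129.4 to 144.5 CPM (counts scaled to the total on named genes). MCM4, MCM6 and MCM7 are the subunits that form a helicase core in isolation. MCM4 (chr8:47960185-47978160, plus strand) had 8829, 8269, 3458 and 3658 counts and 130, 119, 38.8 and 54.6 FPKM. MCM6 (chr2:135839626-135876426, minus strand) had 4148, 3229, 2293 and 2241 counts and 52.3, 39.5, 21.8 and 24.4 FPKM. Both were higher in each SW1990 library than in each PANC-1 library. MCM7 (chr7:100092728-100101940, minus strand) had 6749, 5631, 6028 and 5313 counts and 116, 94.1, 74.7 and 81.4 FPKM. MCM3, which is drawn into the complex with MCM5 (chr6:52264009-52284881, minus strand), had 6175, 6609, 5086 and 5145 counts and 97.4, 104, 64.3 and 75.6 FPKM. MCM3 was the only subunit that was higher in the irradiated library of both lines by counts and by FPKM.

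Of the loading factors, CDC6, an ATPase (chr17:40287633-40304657, plus strand), had 2563 and 3467 counts in unirradiated and irradiated SW1990 cells and 1352 and 1641 counts in PANC-1 cells, with 28.98, 39.6, 10.3 and 16.5 FPKM. ORC1, the subunit of the origin recognition complex whose amount changes over the cell cycle (chr1:52372829-52404459, minus strand), had 1639, 1740, 720 and 899 counts and 23.9, 25.2, 8.05 and 11.6 FPKM. CDT1, which carries the helicase to the origin (chr16:88803213-88809258, plus strand), had 1032, 1100, 829 and 1047 counts and 23.9, 23.3, 9.17 and 14.1 FPKM. Each of these 3 genes was higher in both SW1990 libraries than in either PANC-1 library by FPKM. GMNN, which encodes the inhibitor of CDT1 (chr6:24774931-24786099, plus strand), was the exception among the members, with 398 and 379 counts in SW1990 cells against 688 and 751 in PANC-1 cells, and with 16.5, 14.9, 21.0 and 25.1 FPKM. In the order of levels, neighbours whose counting intervals overlapped were MCM2 with MCM5 and CDT1 with ORC1 in unirradiated SW1990 cells, CDC6 with MCM6 and ORC1 with CDT1 in irradiated SW1990 cells, MCM6 with GMNN, CDC6 with CDT1 and CDT1 with ORC1 in unirradiated PANC-1 cells, and GMNN with MCM6 in irradiated PANC-1 cells.

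**Figure D1:**
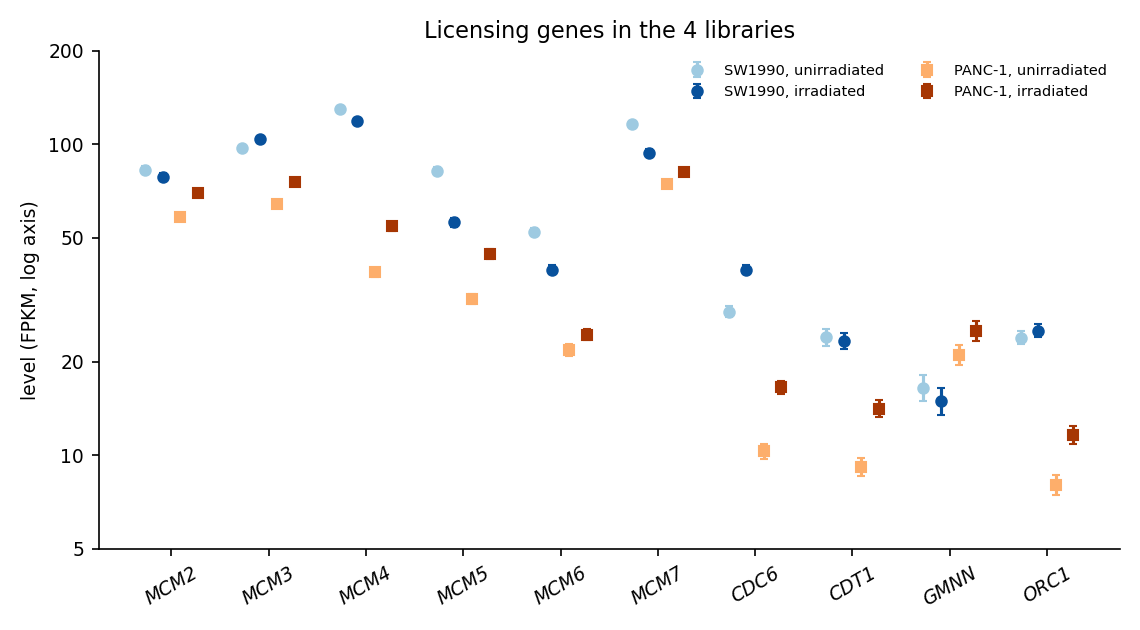
Level in FPKM on a log axis of the 10 licensing genes (x axis) in the 4 libraries, 1 point per library, with bars for the 95% interval from counting error. The SW1990 points lie above the PANC-1 points for 9 genes, and below them for GMNN, which is at 16.5 and 14.9 FPKM in SW1990 and at 21.0 and 25.1 FPKM in PANC-1.

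The first comparison asked how the licensing genes of SW1990 cells differed after radiation. MCM5, MCM6 and MCM7 were lower in the irradiated library, CDC6 was higher, and no member differed by more than 1.44-fold. With the call used by the study, a q-value under 0.001 and a fold change above 2, 0 of the 10 members were called, against 4.13% of the 15731 genes tested (edgeR read test, TMM scaling, q-values by Benjamini-Hochberg over all genes tested). By q-value alone, 5 members were lower, MCM2, MCM4, MCM5, MCM6 and MCM7, against 11.8% of all genes, and 1 member was higher, CDC6, against 14.4%. MCM5 had the largest change of the members, with a log2 fold change of -0.53 (95% interval -0.59 to -0.46). The value of MCM6 was -0.37 (-0.43 to -0.30) and that of MCM7 was -0.27 (-0.32 to -0.22). The helicase subunits were thus not all lower, since MCM3 stood at 0.09 (0.04 to 0.14) with a q-value of 0.00134, which was 0.000516 with DESeq2 size factors, and MCM2 and MCM4 at -0.12 and -0.10. CDC6, by contrast, was higher by 0.43 (0.35 to 0.50), or 1.35-fold. The intervals of ORC1, CDT1 and GMNN included 0. The median over the 10 members was -0.09, beside a median of -0.01 over all genes tested, and 4 members were higher and 6 lower, where 49.3% of all genes tested were higher.

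In PANC-1 cells, the same comparison gave higher values for most members. CDT1, ORC1, CDC6 and MCM2 were 1.31 to 1.38-fold higher in the irradiated library, and no member was lower by the test. The limits of the study were again met by 0 of the 10 members, against 4.7% of the 15159 genes tested. By q-value alone, 6 members were higher, MCM2, MCM3, MCM4, CDC6, CDT1 and ORC1, against 15.4% of all genes, and 0 were lower, against 19.2%. With scaling by total counts, 9 members were higher, since MCM5, MCM6 and GMNN also passed, against 21.7% of all genes. The log2 fold changes were 0.47 (0.33 to 0.60) for CDT1, 0.45 (0.31 to 0.59) for ORC1, 0.41 (0.30 to 0.51) for CDC6 and 0.39 (0.34 to 0.45) for MCM2. The loading factors and MCM2 thus lay close together, ahead of MCM4 at 0.21 and MCM3 at 0.15. GMNN stood at 0.26 (0.11 to 0.41) with a q-value of 0.00219, MCM6 at 0.10 with a q-value of 0.0472, MCM5 at 0.07 with a q-value of 0.114 and MCM7 at -0.05 with a q-value of 0.0994. The median over the members was 0.23, beside -0.02 over all genes tested, and 9 members were higher and 1 lower, where 48.3% of all genes tested were higher. The direction of all calls in this line depended on the scaling, with 360 of the 712 called genes higher under TMM, 456 of 739 under total counts, 406 of 669 with the fold taken from FPKM and 332 of 710 with DESeq2 size factors.

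These read tests take no spread between cultures into account, and for the same change their q-value falls as counts rise. Among rows above 0 FPKM, no member stood below percentile 78.5 in SW1990 or 68.3 in PANC-1 cells. The shares of all genes past a q-value, above and below, are not matched for level. With an assumed coefficient of variation of 0.1 between replicates, 0 of the 10 members passed a q-value of 0.001 in SW1990 cells, and 0 of 10 did so in PANC-1 cells. At this setting 467 of the 15731 genes tested in SW1990 and 522 of the 15159 in PANC-1 cells passed it with a fold change above 2. No member reached that fold change. The share of counts on mitochondrial genes was 4.42% and 5.56% in unirradiated and irradiated SW1990 cells and 3.30% and 2.99% in PANC-1 cells, and its part in these results was not tested.

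The changes from counts were set beside those from FPKM. In SW1990 cells the log2 change from FPKM differed from that from counts by between -0.12 and 0.04, and CDT1 changed sign, from 0.09 to -0.04. In PANC-1 cells the difference lay between -0.14 and 0.41, and all 10 members were higher by FPKM, where 56.6% of the 15065 genes tested with an FPKM above 0 in both libraries were higher. MCM5 moved from 0.07 to 0.48, MCM4 from 0.21 to 0.49, CDC6 from 0.41 to 0.68 and MCM7 from -0.05 to 0.12. The order of the members in PANC-1 cells therefore differed between the measures, and MCM2, at 0.39 by counts, was at 0.26 by FPKM.

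**Figure D2:**
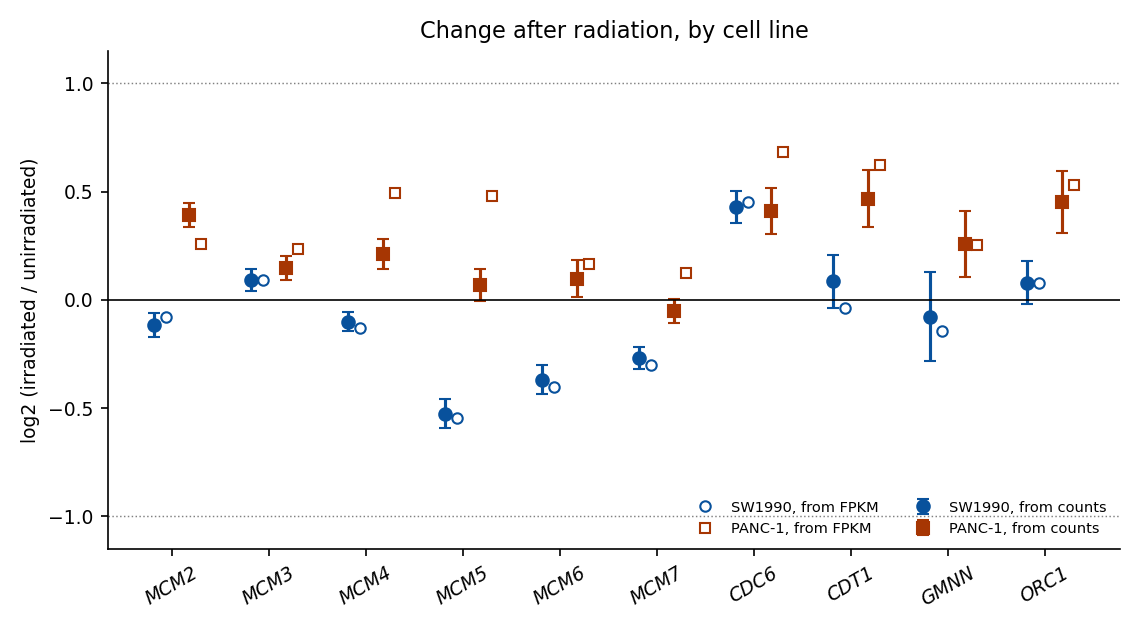
Log2 ratio of the irradiated to the unirradiated library (y axis) for the 10 licensing genes in SW1990 (circles) and PANC-1 (squares), filled with 95% counting intervals from counts and open from FPKM; dotted lines mark a 2-fold change. No filled point reaches a dotted line, CDC6 is at 0.43 and 0.41 in the 2 lines, and MCM5 is at -0.53 in SW1990 and 0.07 in PANC-1.

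Next, the response of SW1990 cells was set beside that of PANC-1 cells. By counts, the change in SW1990 minus the change in PANC-1 was below 0 for 9 of the 10 members, against 47.9% of the 12813 genes tested in both lines with more than 3 counts in each library, and its median was -0.35, beside 0.02 over those genes. The interval lay below 0 for 8 members, against 24.2%, and it narrows as counts rise. It was -0.60 (-0.69 to -0.50) for MCM5, -0.51 (-0.59 to -0.43) for MCM2 and -0.47 (-0.57 to -0.36) for MCM6, the members with the widest gap by counts. CDC6 at 0.02 (-0.11 to 0.15) and MCM3 at -0.06 (-0.13 to 0.02) had intervals that included 0. In all, 5 members had opposite signs in the lines, namely MCM2, MCM4, MCM5, MCM6 and GMNN, against 45.0% of the genes. From FPKM all 10 differences were below 0, against 58.0% of the same genes, with a median of -0.44 beside -0.09 over those genes. The widest were then those of MCM5 with -1.03, CDT1 with -0.66 and MCM4 with -0.62, that of CDC6 was -0.23, and 7 members had opposite signs, with CDT1 and MCM7 added, against 46.7% of the genes. With 4 libraries an interaction leaves no residual degree of freedom, so that the difference between the lines was not tested.

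When both lines were fitted together with cell line as a covariate (edgeR quasi-likelihood test, 1 residual degree of freedom), radiation changed 0 of the 10 members and 0 of 18180 genes at an adjusted p under 0.05 (0%). The members' adjusted p-values lay between 0.936 and 0.975. CDC6, higher in both lines, was at 0.44 ± 0.14 (log2, SE) with an adjusted p of 0.936, and was the only member with an unadjusted p under 0.05, as were 833 of all genes. DESeq2 gave 38 genes, limma on log2(FPKM + 1) gave 1 and limma-voom gave 0, and no member was among them.

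The same fit compared the lines. In it, CDC6, ORC1, MCM4 and MCM6 were higher in SW1990 than in PANC-1 cells, that is 4 members against 21.4% of the 18180 genes, and GMNN was lower, that is 1 member against 22.2%. The 2 libraries of a line differ in treatment and are not repeats of an untreated culture. The log2 difference was 1.37 ± 0.15 (SE) for MCM4 with an adjusted p of 0.00356, 1.18 ± 0.17 for ORC1 with 0.00712, 1.11 ± 0.14 for CDC6 with 0.00497 and 0.80 ± 0.17 for MCM6 with 0.021. These are an ORC subunit, its ATPase partner and a pair of subunits of the helicase core. GMNN was at -0.78 ± 0.19 with an adjusted p of 0.029, which was 0.0536 without a filter on counts, 0.0845 with DESeq2 and 0.0579 with limma on log2(FPKM + 1). MCM3, at 0.43 ± 0.13 with an adjusted p of 0.0516, passed in 4 of the alternatives, with 0.0451 under RLE scaling, 0.00366 with DESeq2, 0.0323 with limma on log2(FPKM + 1) and 0.0477 with limma-voom, and had 0.0973 without a filter on counts. The median over the members was 0.42, beside 0.00 over all genes. CDT1 and MCM5 passed with limma on log2(FPKM + 1) only, where CDT1 was at 0.99 with an adjusted p of 0.0092, against 0.30 with 0.217 in the edgeR fit of counts, and MCM5 at 0.84 with 0.0321, against 0.42 with 0.136. MCM2 depended on the pair compared and on the measure, with 0.29 in the unirradiated and -0.19 in the irradiated pair by counts, while its FPKM was higher in SW1990 in both pairs. By counts, MCM5 was at 0.70 in the unirradiated and 0.13 in the irradiated pair, and CDT1 at 0.47 and 0.12.

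**Figure D3:**
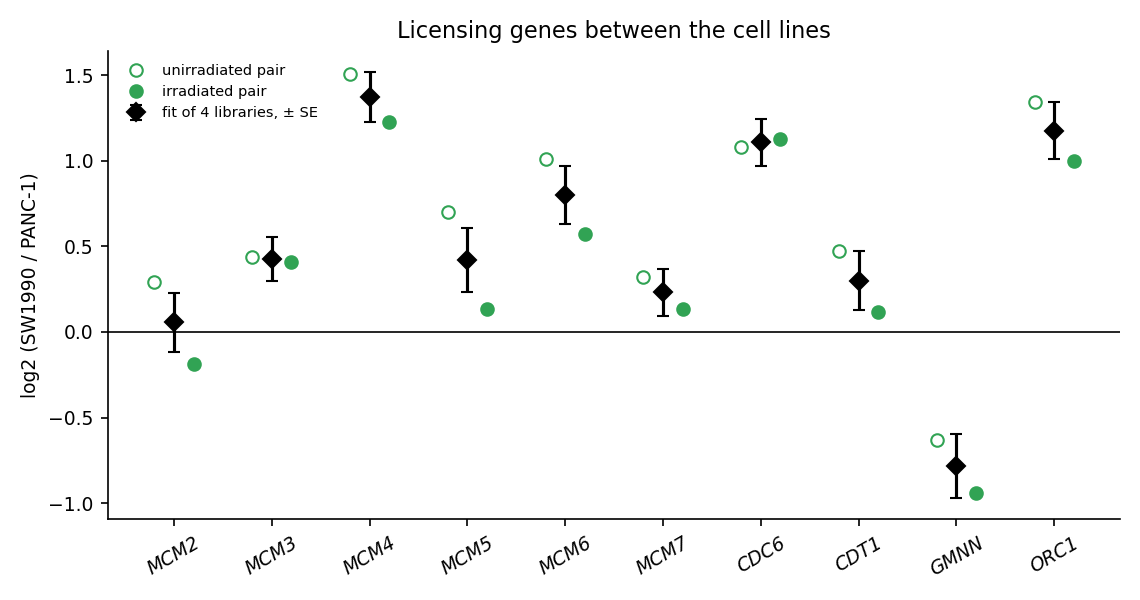
Log2 ratio of SW1990 to PANC-1 (y axis) for the 10 licensing genes, as the fit of 4 libraries with its SE (diamonds) and within the unirradiated (open circles) and the irradiated pair (filled circles). MCM4, CDC6 and ORC1 lie above 1 in the fit, GMNN lies at -0.78, and MCM2 is on opposite sides of 0 in the pairs, by counts and not by FPKM.

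The MCM proteins act as a ring with 1 copy of each subunit, yet their transcripts were not equally abundant. The FPKM of the 6 subunits summed to 560 and 491 in unirradiated and irradiated SW1990 cells and to 290 and 350 in PANC-1 cells. MCM6 had the smallest share of this sum in every library, with 9.33% and 8.06% in SW1990 and 7.52% and 6.98% in PANC-1 cells. The largest share belonged to MCM4 in both SW1990 libraries, with 23.2% and 24.2%, and to MCM7 in both PANC-1 libraries, with 25.8% and 23.2%. MCM4 took 13.4% and 15.6% in PANC-1 cells, so that its place in the order separated the lines. These places are by FPKM, and in the shares of counts, which are not scaled to length, MCM2 came first in irradiated PANC-1 cells with 22.7%, before MCM7 with 21.3%, and MCM5 came last in irradiated SW1990 cells with 9.71%, after MCM6 with 10.2%. The most abundant subunit exceeded the least abundant one by 2.49 and 3.01-fold in SW1990 and by 3.43 and 3.33-fold in PANC-1 cells.

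**Figure D4:**
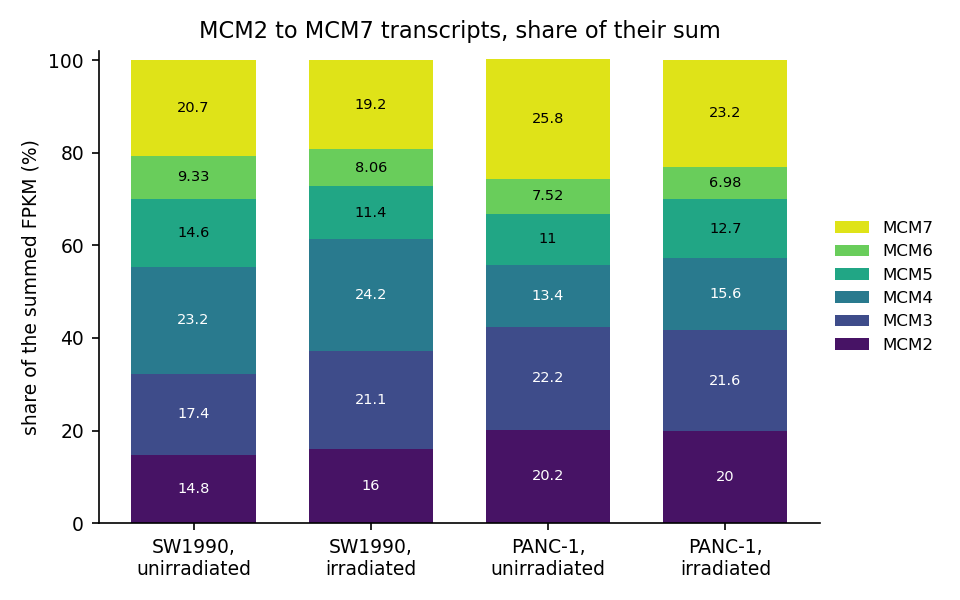
Share of each of MCM2 to MCM7 in the summed FPKM of the 6 genes (y axis, percent) in the 4 libraries, 1 bar per library. MCM4 is the largest part in SW1990, at 23.2% and 24.2%, and MCM7 in PANC-1, at 25.8% and 23.2%.

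The balance of CDT1 and its inhibitor differed between the lines. The ratio of CDT1 to GMNN in FPKM was 1.45 (1.29 to 1.63) and 1.56 (1.39 to 1.76) in unirradiated and irradiated SW1990 cells, and 0.436 (0.394 to 0.483) and 0.564 (0.513 to 0.619) in PANC-1 cells. By FPKM the transcript of the loader was thus above that of the inhibitor in both SW1990 libraries and below it in both PANC-1 libraries. The size of the gap between the lines depended on the measure, since CDT1 differed by 0.99 on log2(FPKM + 1) and by 0.30 from counts, and the length that links its counts to its FPKM (counts divided by FPKM and by the total on named genes) was 2415 and 2579 bases in SW1990 but 3874 and 3699 bases in PANC-1 cells, against 1353, 1388, 1403 and 1495 bases for GMNN. CDC6 over ORC1 was above 1 in each library, with 1.21 and 1.57 in SW1990 and 1.28 and 1.42 in PANC-1 cells. The intervals before and after radiation did not overlap in SW1990 cells (1.14 to 1.29 and 1.48 to 1.66), and did so in PANC-1 cells (1.17 to 1.40 and 1.31 to 1.54), where the log2 change from counts was 0.41 for CDC6 and 0.45 for ORC1, so that the direction of the ratio depended on the measure.

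The other genes of the pathway were taken from lists, and the counts are those with a q-value under 0.001. Of all genes tested, 14.4% were higher and 11.8% lower by this limit in SW1990, and 15.4% higher and 19.2% lower in PANC-1 cells. Of 8 further genes of origin recognition and loading, 1 was higher and 2 were lower in SW1990, and 3 were higher in PANC-1 cells. ORC2 was at -0.30 and 0.03 in SW1990 and PANC-1, ORC6, the smallest ORC subunit, at -0.16 and 0.41, and KAT7, the acetyltransferase that acts on histone H4 at origins, at -0.27 and 0.34 (log2 fold changes). ORC3, the gene that was higher in SW1990, was at 0.31 and 0.07. Of 19 genes that turn the loaded helicase into an active fork, 2 were higher and 1 was lower in SW1990, and 8 were higher and 1 was lower in PANC-1 cells, with medians of 0.01 and 0.23. In PANC-1 cells DONSON was at 0.63, RECQL4 at 0.59 and TICRR, the partner of TOPBP1 in origin firing, at 0.58, and the corresponding values in SW1990 were 0.23, 0.01 and 0.34. TICRR was past the q-value in both lines. DBF4, the activating subunit of the CDC7 kinase, was at 0.26 in SW1990 and at -0.38 in PANC-1 cells. Of 13 genes of the ubiquitin ligases and partners that remove licensing factors, 4 were higher and 2 lower in SW1990 and 4 higher and 1 lower in PANC-1 cells. CCNF, which targets CDC6, was higher in both, at 0.30 and 0.48. PCNA, the clamp on which CDT1 is marked for destruction, was at -0.19 and 0.32, and DTL, the substrate receptor of that ligase, at -0.32 and 0.06.

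Fork and mitosis genes were added for comparison, again counted by a q-value under 0.001. The shares of all genes tested were 14.4% higher and 11.8% lower in SW1990, and 15.4% higher and 19.2% lower in PANC-1 cells. Of 17 fork genes, 0 were higher and 5 lower in SW1990 and 7 were higher and 0 lower in PANC-1 cells, with medians of -0.11 and 0.24. PRIM1, the primase subunit, was at -0.61 and -0.01, and FEN1, the flap endonuclease, at 0.01 and 0.63. The fork list thus had medians close to those of the licensing genes in both lines. Of 15 mitosis genes, 7 were higher and 1 lower in SW1990 and 8 higher and 4 lower in PANC-1 cells, with medians of 0.16 and 0.17. TOP2A was at 0.35 in both lines, while AURKA was at 0.26 and -0.41. Of 8 p53 target genes, 3 were called higher in SW1990 with more than a 2-fold change, and by q-value 7 were higher there, while of the 6 tested in PANC-1 cells 3 were higher and 2 lower. CDKN1A, whose product p21 inhibits CDK2, had 1229 and 4002 counts in SW1990 and 1282 and 782 in PANC-1 cells. BTG2 had 51 and 525 counts in SW1990 and 32 and 12 in PANC-1 cells, where it was not tested. GDF15 was called lower in PANC-1 cells, with 8563 and 3611 counts. No gene of the licensing, origin, helicase activation, turnover, E2F, fork and mitosis lists was called in either line.

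Of the 13 E2F and pocket protein genes, 2 were higher and 2 lower in SW1990 by a q-value under 0.001, against 14.4% and 11.8% of all genes. In PANC-1 cells 6 were higher and 3 lower, against 15.4% and 19.2% of all genes. E2F7, a repressor of licensing genes, was lower in both lines, with 1194 and 898 counts in SW1990 and 2994 and 1589 counts in PANC-1 cells, and with log2 fold changes of -0.42 (-0.54 to -0.29) and -0.78 (-0.87 to -0.70). E2F2, an activator, was at -0.04 and 0.72, and E2F3, another activator, at 0.44 and -0.29. The family thus had no common direction.

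Among the 85 other replication and cell cycle genes of the lists, the 5 whose centred log2 FPKM profile over the 4 libraries was nearest to the members' median profile were E2F8, CDC45, TIPIN, PCNA and MCM10, with root mean square differences of 0.0627, 0.0673, 0.103, 0.107 and 0.11. The members' median profile was 0.51, 0.30, -0.62 and -0.20 in unirradiated and irradiated SW1990 and unirradiated and irradiated PANC-1 cells. CDC45, the helicase activator, followed it with 0.52, 0.34, -0.73 and -0.13. Of the members, which are themselves part of that median, MCM5 lay nearest to it with a difference of 0.124. GMNN lay farthest with 0.684, with an opposite profile of -0.20, -0.35, 0.15 and 0.40. The profiles share their 4 libraries, and the likeness is a description.

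In all, 4 members start head to head with another gene, and these neighbours were examined because they lie at the same promoter. TPRA1 starts 28 bases from MCM2 and overlaps it by 29 bases, PRKDC starts 2 bases from MCM4, PRPF38A starts 105 bases from ORC1, and AP4M1 overlaps MCM7 by 392 bases at their starts. TPRA1, a membrane protein gene, was at 0.36 and 0.29 in SW1990 and PANC-1 cells, beside -0.12 and 0.39 for MCM2. PRPF38A, a splicing factor gene, was at -0.24 and -0.31, beside 0.08 and 0.45 for ORC1. PRKDC, the catalytic subunit of DNA-PK, was at 0.09 and 0.04, beside -0.10 and 0.21 for MCM4. The neighbours thus did not share the direction of their partner in both lines, apart from AP4M1, an adaptor subunit gene, for which this depended on the measure. AP4M1 was at -0.37 and 0.32 by counts and at -0.21 and 0.44 by FPKM, beside -0.27 and -0.05 by counts and -0.30 and 0.12 by FPKM for MCM7. Whether the counting used strand is not given in the sources used here, so reads in the shared bases cannot be assigned to 1 of the genes.

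MCM7 also carries 3 microRNA genes, MIR106B, MIR93 and MIR25, on its own strand in the intron after exon 13 of its transcript MCM7-201, outside every exon. Their mature products are shown because the MCM7 transcript is also their precursor. The sequences are from RefSeq (GRCh38.p14), with the seed, bases 2 to 8, in capitals, and those of miR-106b-5p and miR-93-5p have the same seed.
miR-106b-5p, chr7:100094043-100094063, minus strand: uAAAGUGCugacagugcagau
miR-93-5p, chr7:100093815-100093837, minus strand: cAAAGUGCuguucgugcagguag
miR-25-3p, chr7:100093571-100093592, minus strand: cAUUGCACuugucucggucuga
The rows of these genes held few counts, with 9, 2, 8 and 5 for MIR106B, 5, 4, 1 and 4 for MIR93 and 15, 16, 8 and 12 for MIR25 in unirradiated and irradiated SW1990 and unirradiated and irradiated PANC-1 cells. No change was detectable at this depth, with q-values of 0.128 and 0.69 for MIR106B, and mature microRNA is not measured by these libraries.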

How the data were processed

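RNA sequencing of 4 libraries was used, 1 for each cell line and treatment. According to the submitters' processing notes and the study's supplementary methods, reads were filtered with Trimmomatic 0.36, aligned to GRCh38 with HISAT2 2.0 and quantified with StringTie 1.3.3b. The authors deposited raw counts, whose counting tool is not given in the sources used here, and FPKM values scaled to transcript length and library size. The labels name ribosomal RNA depletion and the extract protocol an mRNA kit. Between 4.6% and 5.86% of counts on named genes came from RNAs that lack a poly(A) tail.

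Of 59263 rows, 1089 named no gene (0.453% to 0.635% of a library's counts) and were left out. Of 58174 identifiers, 57836 were in GENCODE 29. Within a line, genes that reached 1 FPKM in either library entered a read test that follows exactTest in edgeR 4.0.16 under R 4.3.3 (dispersion 0, TMM, 0 counts set to 0.01), with 4 values below 0 set to 0 in PANC-1. All libraries were fitted by edgeR's quasi-likelihood test after filterByExpr. DESeq2 1.42.0 and limma 3.58.1 served as alternatives. Intervals at 95% are exact for log2 changes and levels, and normal for differences of changes and ratios of levels. Scripts were tested on simulated data. The members, lists, markers and tests were chosen with earlier results of these data known. The genes named are the members, called genes and up to 3 genes with the largest change in each line of each list, 5 nearest profiles and neighbours at a member's start or inside it. The text gives a part of them.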

Additional observations from a re-analysis of the deposited data

Results flagged for a closer look

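Several genes had log2 changes of opposite sign in the libraries of the 2 lines, and are given here with the log2 change in SW1990 minus that in PANC-1. Opposite signs were found for 45.0% of the 12813 genes tested in both lines, so that 5 of the 10 licensing genes is close to the share of all genes. The difference was not tested, since each line has 1 library per treatment. Of the licensing genes, these were MCM5 with -0.60, MCM2 with -0.51, MCM6 with -0.47, GMNN with -0.33 and MCM4 with -0.31, where the interval of MCM5 in PANC-1 and that of GMNN in SW1990 cells included 0. Of the other genes named, TIPIN, a fork protein gene, was at -0.80, MCM10 at -0.68, AP4M1 at -0.68, KAT7 at -0.61, ORC6 at -0.57, E2F8 at -0.52, PCNA at -0.51, MCM8 at -0.41 and CDC45 at -0.31. The values above 0 were those of BTG2 with 4.64, CDKN1A with 2.28, GDF15 with 1.46, E2F3 with 0.72, AURKA with 0.66 and DBF4 with 0.64. BTG2 had few counts in PANC-1 cells and was not tested in that line, so it is not among the genes tested in both lines. For these genes outside the licensing set, both counting intervals excluded 0 on opposite sides. The intervals are not adjusted for the number of genes, and not all of these genes had a q-value under 0.001 in both lines. For CDC45 the q-values of the read test were 0.0883 in SW1990 and 0.0421 in PANC-1 cells.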

How the results depend on the processing

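The number of genes called in SW1990 and PANC-1 cells was 305 and 318 with an FPKM of at least 5, 1456 and 1776 with a fold change above 1.5, 99 and 103 with an assumed coefficient of variation of 0.2, 15 and 10 with 0.4, and 4124 and 5250 by q-value alone, which was added after seeing the data, as was the binomial test without equal library sizes. The members with a q-value under 0.001 were 0 in both lines at each assumed coefficient of variation, 0.1, 0.2 and 0.4. At 0.1, the number of genes called, which also needs the fold change above 2, was 467 in SW1990 and 522 in PANC-1 cells. The members' median in PANC-1 cells was 0.32 with total counts, 0.37 from FPKM and 0.36 from log2(FPKM + 1), and the median difference between the lines was -0.47 with total counts. For radiation over both lines, DESeq2 gave 38 genes and limma on log2(FPKM + 1) gave 1. CDT1 in SW1990 cells turned to -0.0393 from FPKM and -0.0377 from log2(FPKM + 1), MCM7 in PANC-1 cells to 0.0377 with total counts and 0.12 from FPKM and from log2(FPKM + 1), and MCM2 between the lines to -0.19 in the irradiated pair. The cause was not tested. For counts and medians, 43 recomputed values stayed close to the reported one (within 1.5 times for a count) and 22 moved. For single members under settings with a test of their own, 160 values kept direction and side of the threshold, 39 lost the threshold, 10 gained it and 1 reversed. At the assumed coefficients of variation the log2 change stays the reported one, so its direction could not change. In the fit of radiation over both lines no member had passed, so none could lose the threshold. From FPKM, where the q-value stays that of the counts, 36 kept their direction and 4 reversed. In single pairs, without a test, 10 stayed close, 9 moved and 1 reversed. Each group has 1 library, so no replicate could be left out, and cell line was the block in the fit of radiation over both lines. With 379 counts in the lowest library, GMNN had the widest interval.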

Other observations

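MCM8 and MCM9, relatives of the replicative subunits that form a helicase of their own in recombination and take no part in licensing, were measured beside them. MCM9 had 772 and 533 counts in unirradiated and irradiated SW1990 cells and 742 and 725 in PANC-1 cells, with log2 fold changes of -0.54 (95% counting interval -0.70 to -0.38) and 0.10 (-0.05 to 0.25). MCM8 had 2291 and 1932 counts in SW1990 and 2272 and 2313 counts in PANC-1 cells, with -0.25 (-0.34 to -0.16) and 0.16 (0.07 to 0.24). Both were lower after radiation in SW1990 cells by q-value under 0.001, and MCM8 was higher in PANC-1 cells. GMNC, a relative of geminin that acts in multiciliated cells, had no count in any library, and MCIDAS of the same family had 118, 107, 37 and 29 counts.

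The length that links counts and FPKM values (counts divided by FPKM and by the total on named genes) differed between libraries for some members. For MCM5 it was 3006 and 2986 bases in unirradiated and irradiated SW1990 cells and 4077 and 3262 bases in PANC-1 cells, and for MCM2 it was 3507, 3349, 3458 and 4043 bases. For CDT1 it was 2415, 2579, 3874 and 3699 bases. For ORC1 it lay between 3773 and 3860 bases. MCM5 and MCM2 are the members for which the log2 changes from counts and FPKM in PANC-1 cells differed most, upwards and downwards. PRKDC, which starts 2 bases from MCM4, was at 0.04 by counts and at 0.97 by FPKM in PANC-1 cells. The cause was not tested.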
